A study of Mus musculus with 48 samples.

Results

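The 33 genes described here encode the core machinery of homologous recombination and of the Fanconi anemia pathway. They were chosen by name as pathway members, with earlier results of these data known, so their shares are no independent support. All 33 were found among the 55335 genes of the deposited tables. Homologous recombination repairs a broken chromosome by copying the intact sister: the MRE11A-RAD50-NBN complex and the nucleases RBBP8, EXO1 and DNA2 with the helicase BLM trim the broken ends, BRCA1-BARD1, PALB2 and BRCA2 then act on the single strands, and the strand-exchange group (RAD51B, RAD51C, RAD51D, XRCC2, XRCC3, RAD54L and RAD52) assists the pairing with the intact copy. The Fanconi pathway handles crosslinks between DNA strands: a core ubiquitin ligase (FANCA, FANCB, FANCC, FANCE, FANCF, FANCG and FANCL, anchored by FANCM) works with the conjugating enzyme UBE2T to ubiquitinate FANCD2 and FANCI, which call in nucleases held by SLX4, among them MUS81-EME1. Mouse embryonic stem cells (mESCs) divide rapidly with a long S phase and are known to express these genes well.

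The measurements were RNA-seq of total RNA depleted of ribosomal RNA (28 libraries, 14 groups) and ribosome profiling (Ribo-seq, the sequencing of mRNA fragments covered by ribosomes; 4 libraries, 2 groups), with 2 libraries in each group. The cells were male mESCs of mixed 129 and C57BL/6 origin carrying the tamoxifen-inducible recombinase Cre-ERT2 at Rosa26, grown in serum, LIF and 2i. Nrde2-KO cells had received 100 nM 4-hydroxytamoxifen (4OHT) for 4 days to delete Nrde2 and Mtrex-KO cells the same dose for 3 days to delete Mtrex, while Nrde2-WT and Mtrex-WT were the untreated conditional lines. NRDE2 is a nuclear protein linked to pre-mRNA splicing, and MTREX is the RNA helicase of the nuclear exosome and a partner of NRDE2. Nrde2d200 lines lacked the first 200 residues of NRDE2, and Nrde2-D174R lines carried a point mutation in the part of NRDE2 that contacts MTREX. Both are permanently edited lines and were compared with the same Nrde2-WT pair as Nrde2-KO. The mutation and any other difference between the lines therefore cannot be told apart. In the Ccdc174 experiment the splicing-associated protein CCDC174 was fused to the FKBP12F36V degron in all cells, and the Ccdc174-dTAG group had received 500 nM dTAG-13 for 24 h to degrade it, while the Ccdc174-WT group carried the same fusion without dTAG-13. A second Nrde2-WT and Nrde2-KO experiment and the Ccdc174 experiment were each sequenced without and with cycloheximide (CHX, 0.1 mg/ml for 4 h), an inhibitor of translation that also blocks nonsense-mediated decay. No control received 4OHT or dTAG-13, so the agent and the loss of the protein cannot be told apart.

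Values below are normalized CPM (a gene's reads scaled to the library total, divided by a size factor for each library). Differences are log2 fold changes with their standard error (SE) from limma on log2(normalized CPM + 0.25), where a gene passed the test at a Benjamini-Hochberg adjusted p below 0.01 over all genes tested. Nothing in the labels says that the 2 libraries of a group came from separate cultures, so the p-values measure the spread between these libraries only. Where called genes are said to lie apart between groups, this describes the values. It adds no support to a call, since the test used the same libraries. The libraries held 28683644 to 36272309 reads in genes for RNA-seq and 3475051 to 5035940 for Ribo-seq. The mESC marker Pou5f1 lay between 397 and 1024 in the RNA-seq libraries, and the fibroblast marker Dcn did not exceed 0.31. The targeted transcripts matched the labels without CHX: Nrde2 read 41.3 and 40.3 in Nrde2-WT against 19.2 and 20.3 in Nrde2-KO, and Mtrex 118 and 111 in Mtrex-WT against 46.2 and 41.3 in Mtrex-KO. With CHX the Nrde2 transcript did not separate the groups in that direction (242 and 224 in Nrde2-WT, 257 and 249 in Nrde2-KO), whereas Nrde2 footprints fell from 12.2 and 14.2 to 2.33 and 3.24 in Ribo-seq. Ccdc174-dTAG acts on the protein, and the Ccdc174 transcript read 28.2 and 28.2 without and 35.2 and 38.0 with dTAG-13.

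The 33 genes are rich in introns. Taking the principal transcript of each gene (GENCODE M21, GRCm38), they had a median of 14 introns against 8 over the 12959 protein-coding genes tested. The median span was 32.9 kb against 21.9 kb. With the exons of all transcripts joined, the median exonic length was 5.75 kb against 4.43 kb. Fancd2 had 43 introns, Fanca 42, Fanci 37, Brca2 26 and Rad50 24, and Fancf had none. In GRCm38 coordinates Fanca lies at chr8:123268300-123318576 on the minus strand, Dna2 at chr10:62947026-62974185 on the plus strand, Rad51c at chr11:87376645-87404954 on the minus strand and Rad52 at chr6:119902698-119922828 on the plus strand. The splicing factor U1 reads the 5′ splice site as 3 exon bases and 6 intron bases, with the consensus caggtaagt. At 5 or fewer matching bases a site was counted as weak, and 16.4% of the 529 introns of the 33 genes were weak by that count, the same share as in all 137626 introns. At 4 or fewer matches were 9 sites, printed because they are the farthest from the consensus in these genes and because NRDE2 and CCDC174 were studied for their part in splicing at 5′ splice sites. In each, capitals mark the bases that differ from the consensus:
Brca2 intron 16 (chr5:150552392-150552400, plus strand): TaggtGCTG
Dna2 intron 1 (chr10:62947167-62947175, plus strand): GCTgtGagC
Dna2 intron 20 (chr10:62971988-62971996, plus strand): TTAAtaTCC
Exo1 intron 8 (chr1:175893059-175893067, plus strand): GCAgtaTCC
Fanca intron 4 (chr8:123313234-123313242, minus strand): AGTgtGagA
Fanca intron 32 (chr8:123275126-123275134, minus strand): ACggtaTCA
Fancd2 intron 34 (chr6:113578489-113578497, plus strand): TTggtGaTG
Fancg intron 5 (chr4:43007262-43007270, minus strand): AaggtCTAG
Palb2 intron 1 (chr7:122132714-122132722, minus strand): AaggtGCCC

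The weakest pair, in Dna2 intron 20 and Exo1 intron 8, begins as introns of the minor spliceosome do, which U1 does not read. The start of Dna2 intron 20 reads ATATCCTTgc and that of Exo1 intron 8 GTATCCTTtc, where capitals mark the minor-class motif ATATCCTT or GTATCCTT, searched at the first intron bases on the gene's own strand. This start occurred in 452 of all introns (0.328%). No read in these files is assigned to an intron or junction, so the sequences describe the genes and not how any site was spliced.

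In untreated cells every one of the 33 genes was measured. Mean normalized CPM in the Nrde2-WT pair of the first experiment ran from 6.38 (Fancf) to 302 (Brca2), and no gene had fewer than 216 reads in either library. Per kb of exonic length the lowest level was that of Rad52 (2.39 normalized CPM per kb), the median was 7.60, and the highest was that of Fanci (35.8), followed by Brca1 (30.6) and Mre11a (23.03). Among the Fanconi core subunits, Fanca lay at 11.2, Fancc at 2.94, Fancf at 3.77 and Fancg at 4.22. Exonic length here joins the exons of all annotated transcripts, so these ranks depend on the annotation. For Fancc it was 8359 bases against 3165 in the principal transcript, and for Rad52 5752 against 1617. In bulk RNA, fewer cells of a type and less RNA per cell cannot be told apart, for these and all later values.

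**Figure D1:**
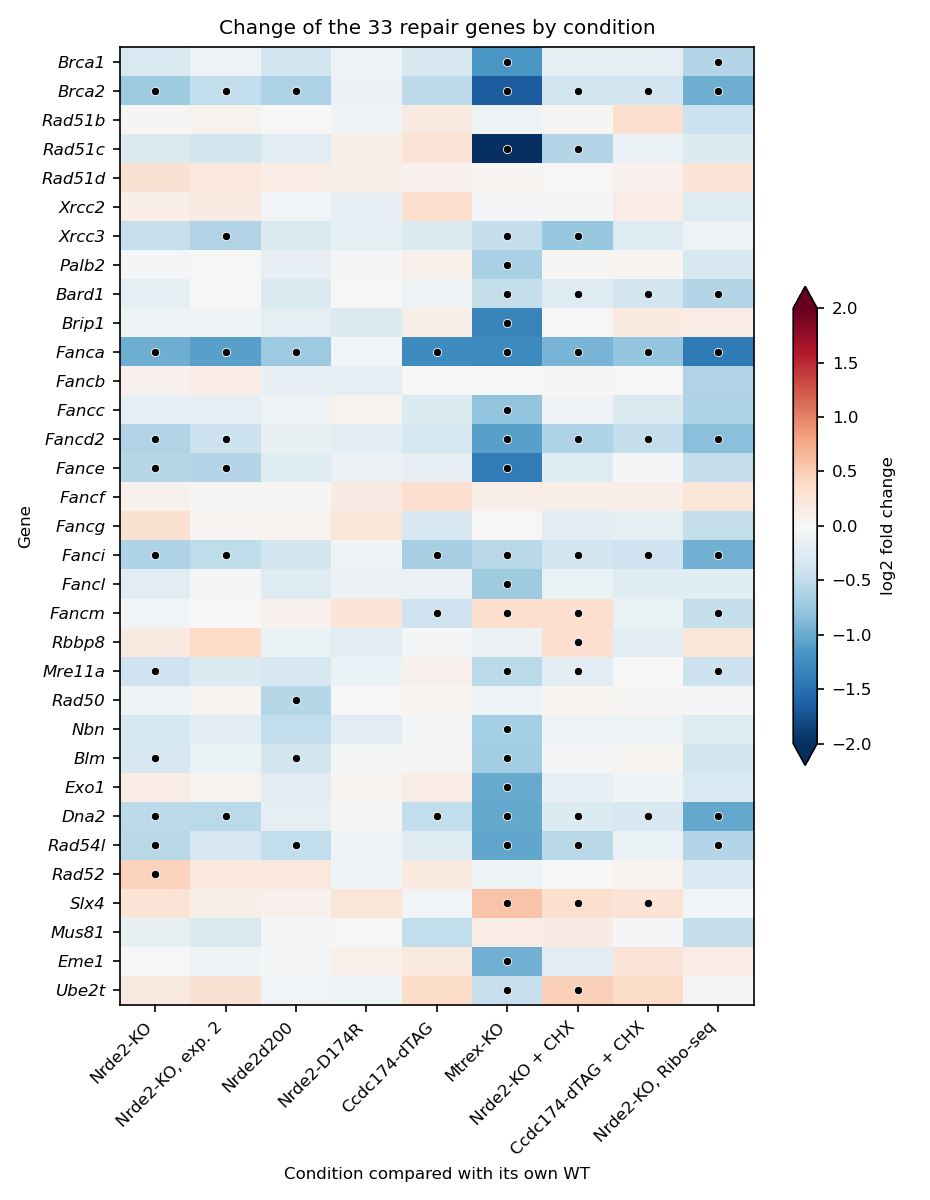
Log2 fold changes of the 33 genes (rows, ordered by role) in 9 comparisons (columns), where color gives the change from lower (blue) to higher (red) and a dot marks an adjusted p below 0.01. The blue row of Fanca runs through every column of a loss condition except Nrde2-D174R, and the Mtrex-KO column holds the most dots (21 lower and 2 higher).

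Loss of NRDE2 lowered the Fanconi ligase subunit Fanca, its substrates Fancd2 and Fanci, the recombination mediator Brca2 and the end-resection nuclease Dna2 in both experiments. In the first experiment 9 of the 33 genes passed the test as lower (27.3%, against 10.6% of the 14889 genes tested) and 1 as higher (3.03%, against 7.64%). In the second experiment 7 were lower (21.2%, against 11.3%) and none higher (against 7.44%). The 6 genes lower in both were Brca2, Fanca, Fancd2, Fance, Fanci and Dna2. The share of all genes that passed in more than 1 comparison was not computed. Such overlaps, here and below, are therefore descriptions only. Over the 33 genes the median change (log2) was −0.14 and −0.06 in the respective experiments, against 0.00 and 0.01 over all genes tested. The 10 calls of the first experiment, in either direction, were 3 with CPM used as deposited (2 lower and 1 higher) and 5 without Nrde2-WT replicate 2 or Nrde2-KO replicate 1. The 7 of the second were 2 with CPM as deposited, 4 with no filter on low values, and 4, 2 and 3 without Nrde2-WT replicate 1, Nrde2-WT replicate 2 and Nrde2-KO replicate 1.

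Fanca read 97.6 and 99.3 in Nrde2-WT and 51.3 and 48.6 in Nrde2-KO of the first experiment, and 92.2 and 87.6 against 43.0 and 41.0 in the second. Both Nrde2-KO pairs lay far below every WT library, at 50.7% and 46.7% of the WT mean. The log2 fold change was −0.98 (SE 0.09, limma adjusted p = 5.9e-07) and −1.09 (SE 0.09, limma adjusted p = 1.7e-07). Fanca was the only member past a 2-fold decrease in the second experiment, where 2.42% of all genes were.

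The FANCD2-FANCI pair, which the core ligase modifies, fell in both experiments. Fancd2 read 172 and 175 in Nrde2-WT against 113 and 115 in Nrde2-KO, and 146 and 154 against 103 and 119 in the second experiment. Fanci read 198 and 215 against 133 and 136, and then 161 and 169 against 111 and 123. Groups did not overlap in either experiment for either gene. The log2 fold changes in the first and the second experiment were −0.60 (SE 0.11) and −0.43 (SE 0.11) for Fancd2 and −0.62 (SE 0.12) and −0.50 (SE 0.12) for Fanci, with limma adjusted p from 0.00054 to 0.0062. Fance, the core subunit that binds FANCD2, fell with them: 22.6 and 22.4 against 13.7 and 16.6, and 20.04 and 24.1 against 15.5 and 13.6 (log2 fold changes −0.57 and −0.59, SE 0.13 for both, limma adjusted p = 0.0034 and 0.0026). Of the other core subunits, Fancb, Fancc, Fancf, Fancg and Fancl passed in neither experiment.

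Among the mediator and strand-exchange genes, Brca2 read 277 and 327 in Nrde2-WT against 188 and 182 in Nrde2-KO, and 228 and 279 against 160 and 203 in the second experiment. All Nrde2-KO libraries were below the WT libraries of their experiment, with log2 fold changes of −0.70 (SE 0.13, limma adjusted p = 0.00057) and −0.48 (SE 0.13, limma adjusted p = 0.0085). Rad54l, a translocase that assists strand exchange, read 85.6 and 89.6 against 60.6 and 58.8 and passed in the first experiment (−0.55, SE 0.10, limma adjusted p = 0.00052). In the second its values were 69.6 and 73.4 against 51.6 and 62.3, apart but not past the test. Xrcc3, of the strand-exchange group, passed in the second experiment only (12.9 and 12.3 against 8.38 and 8.16, −0.59, SE 0.14, limma adjusted p = 0.0035), with 9.40 and 11.2 against 7.23 and 7.52 in the first. Whether the 2 experiments differed for these genes was not tested. Rad52, a strand-annealing protein, was the member that rose in the first experiment, from 12.5 and 15.0 to 19.8 and 18.2 (0.46, SE 0.12, limma adjusted p = 0.0055), and read 20.6 and 21.4 against 24.8 and 23.9 in the second.

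Of the resection genes, Dna2 read 111 and 114 in Nrde2-WT against 78.4 and 78.4 in Nrde2-KO, and 106 and 100 against 69.4 and 73.2 in the second experiment. Its groups were tight and well apart, with log2 fold changes of −0.52 (SE 0.08, limma adjusted p = 0.00014) and −0.53 (SE 0.08, limma adjusted p = 0.0001). Mre11a, the nuclease of the break-sensing complex, read 133 and 140 against 99.7 and 104 (−0.42, SE 0.09, limma adjusted p = 0.0016), and Blm passed as lower too (79.2% of WT), both in the first experiment. Across the 33 genes the changes of the 2 experiments, which share no library, had Pearson's r = 0.908 and Spearman's rho = 0.923, given as a description, since the genes of a library are not independent replicates.

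**Figure D2:**
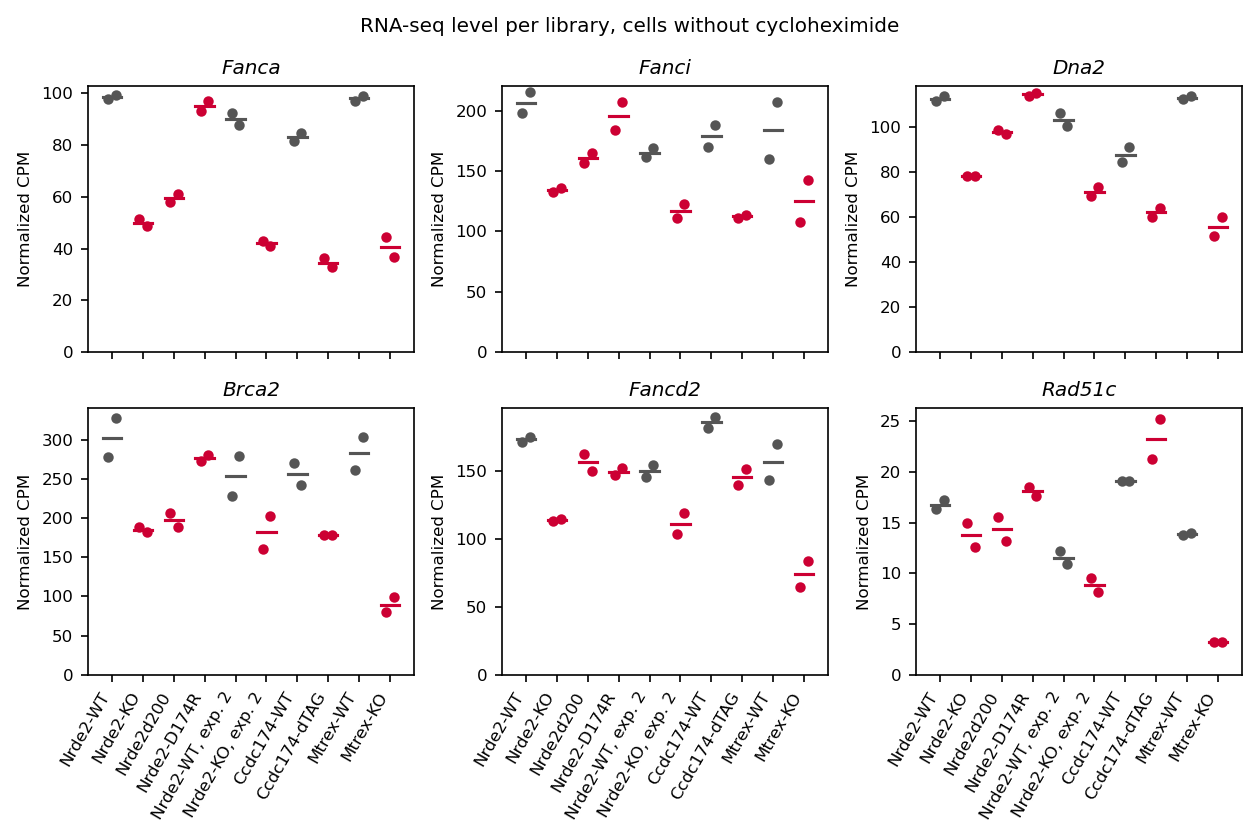
Normalized CPM of 6 genes in each library (points, 2 per group, with a line at the group mean) of the 10 groups without CHX. Fanca is low in every Nrde2-KO, Nrde2d200, Mtrex-KO and Ccdc174-dTAG library and at the level of Nrde2-WT in Nrde2-D174R, whereas Rad51c is low in Mtrex-KO (3.23 and 3.28) and lies between 8.19 and 25.2 elsewhere.

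In Nrde2d200, which lacks the N-terminal 200 residues of NRDE2, none of the 33 genes were higher (against 3.22% of all genes tested). Lower than in Nrde2-WT were 5 of the 33 (15.2%, against 4.27%). These were Fanca, Brca2, Rad50, Rad54l and Blm. Fanca read 58.0 and 60.8, at 60.3% of Nrde2-WT (log2 fold change −0.73, SE 0.09, limma adjusted p = 4.4e-05). Brca2 read 207 and 188 (−0.61, SE 0.13, limma adjusted p = 0.0039) and Rad54l 66.2 and 59.0 (−0.49, SE 0.10, limma adjusted p = 0.0033). Blm, the helicase that opens ends for DNA2, read 119 and 110 against 146 and 149 in Nrde2-WT (−0.36, SE 0.09, limma adjusted p = 0.0088). Rad50, the ATPase of the break-sensing complex, stood at 80.1 and 74.9 against 115 and 116 in Nrde2-WT (−0.57, SE 0.12, limma adjusted p = 0.0032), while its Nrde2-KO values were 110 and 107. For Fanci (157 and 165) and Fancd2 (163 and 150) the Nrde2d200 libraries lay below Nrde2-WT without passing. Nrde2-KO and Nrde2d200 were set against the same Nrde2-WT libraries, and their difference was not tested. Leaving out 1 of the 4 libraries (either Nrde2-WT or Nrde2d200 replicate) gave 1 to 3 calls, and CPM as deposited or no filter on low values gave 1, with Fanca among them each time. Fitting the compared groups alone gave 9 and DESeq2 8.

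The point mutation that weakens the MTREX contact gave no call among the 33 genes. In Nrde2-D174R none passed with limma (against 0.396% of all genes tested in either direction), and edgeR and DESeq2 on the recovered reads also called none. An unadjusted p under 0.05 was found for 4 of the 33, and for 2623 of all 14889 genes tested. Fanca read 93.2 and 96.8, Brca2 273 and 281, and Dna2 114 and 115, close to the Nrde2-WT libraries. Over the 33 genes the median change was −0.07 (log2).

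Degradation of CCDC174 for 24 h lowered 4 of the 33 genes (12.1%, against 4.45% of all genes tested) and raised none (against 1.14%). Fanca fell from 81.4 and 84.7 in Ccdc174-WT to 36.2 and 32.8, with no overlap and 41.6% of the mean remaining (log2 fold change −1.26, SE 0.09, limma adjusted p = 6.7e-08). It was the member past a 2-fold decrease, as were 1.16% of all genes. Fanci fell from 170 and 188 to 111 and 114 (−0.67, SE 0.12, limma adjusted p = 0.0017). Dna2 fell from 84.5 and 90.9 to 60.1 and 64.1 (−0.50, SE 0.08, limma adjusted p = 0.00052), against −0.52 in Nrde2-KO. Fancm, the translocase that anchors the core ligase to DNA, fell from 240 and 251 to 178 and 191 (−0.41, SE 0.09, limma adjusted p = 0.006), whereas in Nrde2-KO it read 161 and 175 against 161 and 188 in Nrde2-WT. The count of 4 was 1 without Ccdc174-WT replicate 2 or with CPM as deposited, and 2 without either Ccdc174-dTAG replicate or with no filter on low values, with Fanca among them each time.

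Fanca, Fanci and Dna2 thus passed as lower in the Ccdc174-dTAG group and in both Nrde2-KO experiments, which share no library with it. Brca2 (270 and 242 against 178 and 178) and Fancd2 (182 and 190 against 140 and 152) lay lower in Ccdc174-dTAG without passing. No member's change in Ccdc174-dTAG differed from its change in the first Nrde2-KO experiment by limma (against 1.65% of all genes tested). At an unadjusted p under 0.05 there were 7 of the 33, and 3312 of all 14889 genes tested. With edgeR none were called and with DESeq2 2. The 33 changes in Ccdc174-dTAG and the first Nrde2-KO experiment had Pearson's r = 0.683 and Spearman's rho = 0.611, again across genes.

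Members with more introns tended to have lower changes in these conditions. The 9 genes lower in the first Nrde2-KO experiment had a median of 21 introns (9 to 43), against 12.5 (0 to 24) for the other 24. Over the 33 genes Spearman's rho between intron number and log2 fold change was −0.66 in Ccdc174-dTAG, −0.54 and −0.41 in the Nrde2-KO experiments, −0.48 in Nrde2d200, and −0.33 in Mtrex-KO. Over all tested protein-coding genes it was −0.18 in Ccdc174-dTAG, −0.04 in the first Nrde2-KO experiment and −0.00 in Mtrex-KO. Without the 3 genes of over 30 introns (Fancd2, Fanca and Fanci) the values over the other 30 were −0.57 in Ccdc174-dTAG and −0.39 in the first Nrde2-KO experiment. Intron number also went with expression: its rho with the level in Nrde2-WT was 0.79 over the 33 genes, and that level had a rho of −0.40 with the change in Ccdc174-dTAG and −0.50 with the change in the first Nrde2-KO experiment, so the parts of intron number and level were not told apart. All values of a comparison come from the same 4 libraries. The share of weak 5′ splice sites did not follow this order, with a rho of 0.22 in Ccdc174-dTAG and 0.08 in the first Nrde2-KO experiment over the 32 genes with introns. The number of weak sites in a gene did, with a rho of −0.52 in Ccdc174-dTAG and −0.48 and −0.46 in the Nrde2-KO experiments over the 33 genes. The parts of intron number and weak-site number were not told apart. Of the 7 genes with a site printed above, Brca2, Dna2, Fanca and Fancd2 were lower in both Nrde2-KO experiments, and Exo1, Fancg and Palb2 passed in neither. Over the 33 genes 6 were lower in both (18.2%). Fancd2, Fanca and Brca2 are also among the members with the most introns (43, 42 and 26), which give more places for such a site. Whether the printed sites had a part was not tested.

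**Figure D3:**
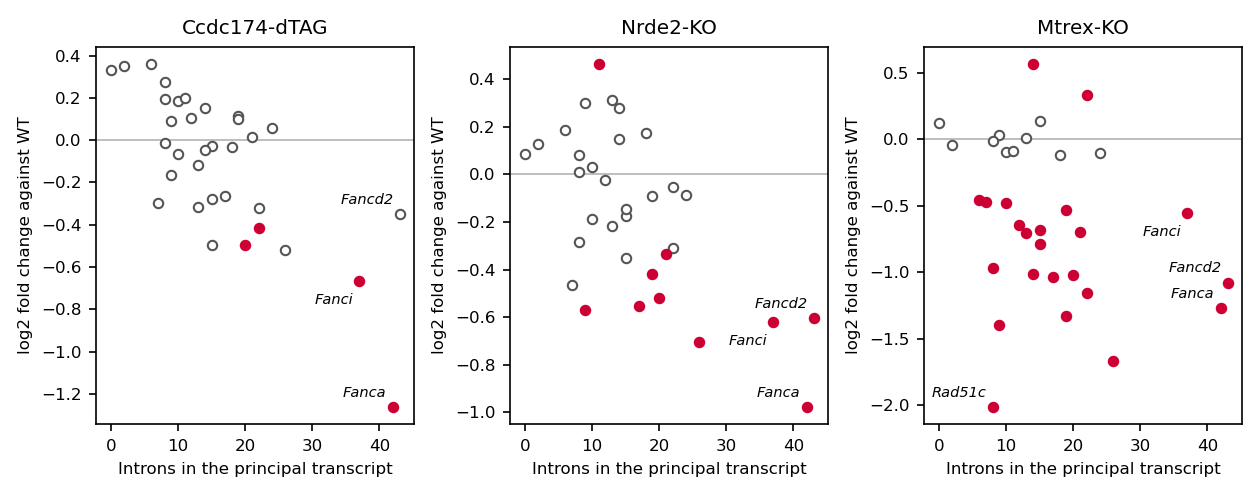
Log2 fold change of each of the 33 genes against its number of introns in Ccdc174-dTAG, Nrde2-KO (first experiment) and Mtrex-KO, with filled points for adjusted p below 0.01. Fanca (42 introns) lies lowest in the panels of Ccdc174-dTAG and Nrde2-KO, and in Mtrex-KO the lowest point is Rad51c, a gene of 8 introns.

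Deletion of Mtrex gave the widest change of the list. In Mtrex-KO 21 of the 33 genes were lower (63.6%, against 27.4% of all genes tested) and 2 higher (6.06%, against 28.5%), and 10 fell more than 2-fold (30.3%, against 10.9%). The median log2 fold change was −0.56, against −0.00 over all genes tested. All 9 genes lower in the first Nrde2-KO experiment were among the 21. With CPM as deposited, which shifts the median of all genes by −0.38 here, 25 were lower, 16 of them by more than 2-fold, and none higher. Fitting the 4 Mtrex libraries alone gave 14 lower, 10 of them by more than 2-fold, and none higher.

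The strongest decrease was that of Rad51c, of the strand-exchange group, which read 13.8 and 14.0 in Mtrex-WT and 3.23 and 3.28 in Mtrex-KO, 23.4% of the WT mean (log2 fold change −2.01, SE 0.13, limma adjusted p = 5.2e-10). Brca2 fell from 262 and 303 to 79.5 and 98.5 (−1.67, SE 0.13, limma adjusted p = 5.5e-09). Brip1, the helicase bound by BRCA1, fell from 46.1 and 49.96 to 16.6 and 21.7 (−1.33, SE 0.11, limma adjusted p = 1.3e-08). For each of these both Mtrex-KO libraries lay far below both WT libraries. Brca1 itself fell from 215 and 246 to 94.0 and 113 (−1.16, SE 0.10, limma adjusted p = 3.2e-08), its partner Bard1 from 51.8 and 54.1 to 43.6 and 33.1, and Palb2, the bridge to BRCA2, to 63.9% of WT. Rad54l fell from 84.8 and 86.2 to 38.2 and 45.02 (−1.04, SE 0.10, limma adjusted p = 7.7e-08).

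On the Fanconi side, Fance fell from 24.3 and 25.0 to 8.39 and 10.1 (−1.40, SE 0.13, limma adjusted p = 6.3e-08) and Fanca from 96.7 and 99.0 to 44.5 and 36.7 (−1.27, SE 0.09, limma adjusted p = 1.8e-09). Fancd2 fell from 143 and 170 to 64.7 and 84.0 (−1.08, SE 0.11, limma adjusted p = 1.6e-07). In all 3 the groups were far apart, and Fancc, Fancl, Fanci and Ube2t also passed as lower, at 57.7% to 72.7% of the WT mean (Ube2t from 25.7 and 23.5 to 18.6 and 17.1). Fancm went the other way, from 234 and 255 to 305 and 312 (0.34, SE 0.09, limma adjusted p = 0.0035), a rise that was lost and turned to −0.060 when CPM were used as deposited, without the size factor. Slx4, the nuclease scaffold, rose from 42.3 and 40.2 to 67.1 and 55.9 (0.57, SE 0.11, limma adjusted p = 0.00021), and neither rise passed when the 4 Mtrex libraries were fitted alone. Dna2 and Exo1, the long-range resection nucleases, fell to 49.4% and 49.7% of the WT mean, Exo1 from 134 and 144 to 63.5 and 74.4. Eme1 fell from 49.8 and 54.0 to 23.4 and 29.7, whereas its partner Mus81 read 11.8 and 14.4 against 15.9 and 13.1.

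A test of the difference between the Mtrex-KO and Nrde2-KO effects put 12 of the 33 genes lower in Mtrex-KO (36.4%, against 14.1% of all genes tested), 3 of them by more than 2-fold (9.09%, against 7.22%). The largest difference was that of Rad51c (−1.73, SE 0.18, limma adjusted p = 1.1e-06), whose first-experiment Nrde2 values were 16.3 and 17.2 in WT and 14.9 and 12.6 in KO. It was followed by Brip1 (−1.24, SE 0.16) and Exo1 (−1.16, SE 0.13), which read 54.9 and 58.4 against 53.4 and 53.0 and 121 and 129 against 140 and 136 in the Nrde2 experiment. Eme1, Brca2, Brca1, Fance, Ube2t, Palb2, Fancc, Dna2 and Rad54l completed the 12, with differences of −0.98 to −0.49. With CPM as deposited, which shifts the median of all genes by −0.42 in this test, 23 members were lower. Fanca (−1.27 against −0.98) and Fanci (−0.56 against −0.62) did not pass this test.

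Other gene lists were counted in Mtrex-KO too, where 27.4% of all genes tested were lower and 28.5% higher. Of 36 genes of DNA replication and S phase, 33 were lower and none higher (median log2 fold change −1.01), and 12 of 12 genes of G2 and mitosis were lower (median −1.26). Among 58 further recombination and Fanconi partners outside the 33, 21 were lower and 5 higher (median −0.23), and among 10 genes of non-homologous end joining, the rival repair route, 2 were lower and 4 higher (median 0.32). Mismatch repair had 5 of 7 lower. In the first Nrde2-KO experiment, where 10.6% of all genes tested were lower, 13 of the 36 S-phase genes were lower. Of the 12 G2 and mitosis genes 5 were lower there. In Ccdc174-dTAG 5 of the 36 S-phase genes were lower, against 4.45% of all genes tested. Of the 58 recombination and Fanconi partners 6 were lower and 4 higher in Nrde2-KO, against 10.6% and 7.64% of all genes tested. In Ccdc174-dTAG 3 partners were lower and none higher, against 4.45% and 1.14%. These partner counts were near the shares of all genes.

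Markers of other cell states changed in the same libraries. Over all genes tested, 7.64% were higher and 10.6% lower in the first Nrde2-KO experiment, and 7.44% and 11.3% in the second. In Mtrex-KO the shares were 28.5% and 27.4%, while 3.22% were higher in Nrde2d200 and 1.14% in Ccdc174-dTAG. All 6 markers of 2-cell-like cells, a rare state of mESC cultures, rose in Nrde2-KO (their summed level was 3.10 and 2.43 in WT against 34.4 and 23.2) and in Mtrex-KO (14.0 and 4.47 against 276 and 97.6), and none passed in Ccdc174-dTAG (3.09 and 5.39 against 3.24 and 8.42). In Nrde2d200, 3 of the 6 rose (15.5 and 19.6 in sum). Of the 4 primitive endoderm markers 2 rose in each Nrde2-KO experiment (in the first, 11.96 and 12.53 normalized CPM in sum in Nrde2-WT against 22.3 and 19.1 in Nrde2-KO) and 3 in Mtrex-KO (10.4 and 10.1 against 17.3 and 17.0), and 1 rose in Ccdc174-dTAG. Of the 8 mESC markers 2 fell in the first Nrde2-KO experiment, none in the second and 4 in Mtrex-KO, and 1 rose in Ccdc174-dTAG. Their sums were 4389 and 4842 in Mtrex-WT against 2978 and 3986 in Mtrex-KO. The 4 trophectoderm markers summed to 55.7 and 92.8 in Mtrex-WT and 441 and 479 in Mtrex-KO, where 3 of them passed as higher. The keratins Krt8 and Krt18, which reached 187 and 270 in the RNA-seq libraries, made up most of the Mtrex-KO sums. Cdx2 did not exceed 4.28 and Eomes 18.4 in any RNA-seq library. The Mtrex-KO libraries also had the smallest shares of reads in genes among the RNA-seq libraries (72.1% and 82.7%, up to 92.1% elsewhere). Their size factors were the lowest too (0.685 and 0.833, against 0.983 and 1.008 in Mtrex-WT). Without Mtrex-KO replicate 1, 21 of the 33 genes passed in either direction, against 23 with it. Leaving it out does not remove this difference between the groups. The part of cell cycle, cell state and read composition in the changes of the 33 genes was not tested.

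With CHX present, Fanca was again the member with the lowest change in both losses. In Nrde2-KO with CHX 10 genes were lower (30.3%, against 15.4% of 15476 genes tested) and 4 higher (12.1%, against 12.5%), and in Ccdc174-dTAG with CHX 6 were lower (18.2%, against 5.87%) and 1 higher (3.03%, against 3.19%). Fanca read 87.8 and 88.3 in Nrde2-WT with CHX against 46.2 and 45.8 in Nrde2-KO with CHX (−0.93, SE 0.05, limma adjusted p = 1.1e-06). In the Ccdc174 cells with CHX it read 78.6 and 82.4 against 48.1 and 44.98 (−0.79, SE 0.05, limma adjusted p = 1.1e-05). Both pairs under CHX remained well below their controls.

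Other members called in Nrde2-KO under CHX included Xrcc3 (7.99 and 8.13 against 4.74 and 4.56, −0.76, SE 0.11, limma adjusted p = 0.00029) and Fancd2 (191 and 193 against 122 and 129, −0.61, SE 0.05, limma adjusted p = 5.9e-06). Rad51c fell from 20.7 and 20.4 to 13.3 and 13.9 (−0.58, SE 0.07, limma adjusted p = 7.1e-05) and Rad54l from 48.4 and 52.5 to 33.2 and 35.5 (−0.55, SE 0.06, limma adjusted p = 6.3e-05). All 4 genes were lower in both Nrde2-KO libraries than in either control, which their calls on these libraries made likely. Brca2 (263 and 312 against 211 and 224, −0.40, SE 0.07) and Fanci (225 and 212 against 166 and 172, −0.37, SE 0.05) were lower too, as were Dna2, Bard1 and Mre11a, at 83.1% to 86.0% of the control mean. Ube2t rose from 12.8 and 12.5 to 17.97 and 17.6 (0.48, SE 0.08, limma adjusted p = 0.001), and Fancm (285 and 276 against 362 and 345), Rbbp8 and Slx4 each reached 126% of the control mean. In Ccdc174-dTAG under CHX, Fancd2 (225 and 225 against 165 and 158, −0.48), Fanci (195 and 208 against 152 and 149, −0.42), Brca2 (274 and 261 against 211 and 199, −0.38), Bard1 (86.1 and 88.4 against 66.5 and 68.4, −0.37) and Dna2 (79.4 and 80.5 against 64.6 and 63.1, −0.32) were lower. Slx4 was higher there (61.0 and 60.1 against 71.7 and 74.0, 0.27, SE 0.05, limma adjusted p = 0.004). Without Nrde2-KO CHX replicate 1 the 14 calls in Nrde2-KO were 9, and without Ccdc174-dTAG CHX replicate 2 the 7 in Ccdc174-dTAG were 4.

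No member's effect differed between CHX and no CHX by limma, in Nrde2-KO (against 0.515% of all genes tested) or in Ccdc174-dTAG (against 0.251%). At an unadjusted p under 0.05 there were 4 and 7 such genes, against 2246 and 1464 of all 15133 genes tested. With edgeR none were called in either, and with DESeq2 none and 1. A p that misses the threshold does not show equal effects, and Fanca in Ccdc174-dTAG stood at −1.26 without and −0.79 with CHX.

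CHX itself raised more of the list than it lowered in the untreated lines. In Nrde2-WT 18 of the 33 genes were higher (54.5%, against 25.1% of 15133 genes tested) and 4 lower (12.1%, against 22.4%). In Ccdc174-WT 14 were higher (42.4%, against 25.4%) and 3 lower (9.09%, against 24.1%), 11 in all without Ccdc174-WT CHX replicate 2. The 13 genes higher in both lines included the mediator and strand-exchange genes Rad51c, Rad51d, Rad52, Palb2 and Bard1, the core subunits Fance, Fancf and Fancl, Rad50 and Blm. The 33 CHX effects of the 2 lines, which share no library, had Pearson's r = 0.946 and Spearman's rho = 0.944.

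Rad52 rose most, from 20.6 and 21.4 to 64.0 and 60.1 in Nrde2-WT and from 17.2 and 16.3 to 65.0 and 57.3 in Ccdc174-WT. This was 2.93-fold and 3.61-fold (log2 fold changes 1.55 and 1.85, SE 0.08 for both, limma adjusted p = 2.2e-09 and 2.8e-10). It was the member past a 2-fold increase in Nrde2-WT (3.03%, against 11.2%), and in Ccdc174-WT Fancf and Mus81 joined it (9.09%, against 12.6%). With CPM as deposited, which shifts the median of all genes by 0.20 and 0.21 here, 4 and 5 members were past it. Mus81, a nuclease subunit for branched DNA, rose from 12.02 and 11.8 to 23.3 and 22.5 and from 11.4 and 14.5 to 26.1 and 26.5. Fancf, the member without introns, rose from 6.42 and 7.28 to 11.8 and 13.1 (0.84, SE 0.15) and from 2.79 and 3.63 to 7.73 and 7.88 (1.23, SE 0.15). In each case no library with CHX reached down to those without. Rad51c rose from 12.2 and 10.9 to 20.7 and 20.4 in Nrde2-WT and from 19.1 and 19.1 to 33.8 and 33.1 in Ccdc174-WT. Rad51d, of the same group, rose from 17.1 and 16.6 to 26.7 and 26.4 in Nrde2-WT, and Bard1 from 53.0 and 55.2 to 86.1 and 88.4 in Ccdc174-WT, again without overlap. Palb2 rose from 40.4 and 41.5 to 69.0 and 66.0 and from 38.3 and 37.3 to 70.5 and 70.7.

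Lower with CHX in both lines were Exo1, Rad54l and Ube2t. Ube2t fell from 22.0 and 20.1 to 12.8 and 12.5 in Nrde2-WT and from 20.9 and 22.6 to 13.6 and 14.1 in Ccdc174-WT (−0.72 and −0.64, SE 0.10 for both). Rad54l fell from 69.6 and 73.4 to 48.4 and 52.5 and from 77.0 and 72.0 to 47.2 and 47.8 (−0.50 and −0.65, SE 0.09 for both), with no overlap in either line. Xrcc3 passed in Nrde2-WT (12.9 and 12.3 against 7.99 and 8.13, −0.63, SE 0.12) and not in Ccdc174-WT (11.2 and 11.05 against 9.53 and 8.73), a difference between lines that was not tested. Over the partner list 27 of 58 genes were higher and 14 lower in Nrde2-WT, against 25.1% and 22.4% of all genes tested. Of the 12 G2 and mitosis genes 9 were lower there. Intron number did not follow these changes (rho 0.00 in Nrde2-WT and −0.07 in Ccdc174-WT).

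**Figure D4:**
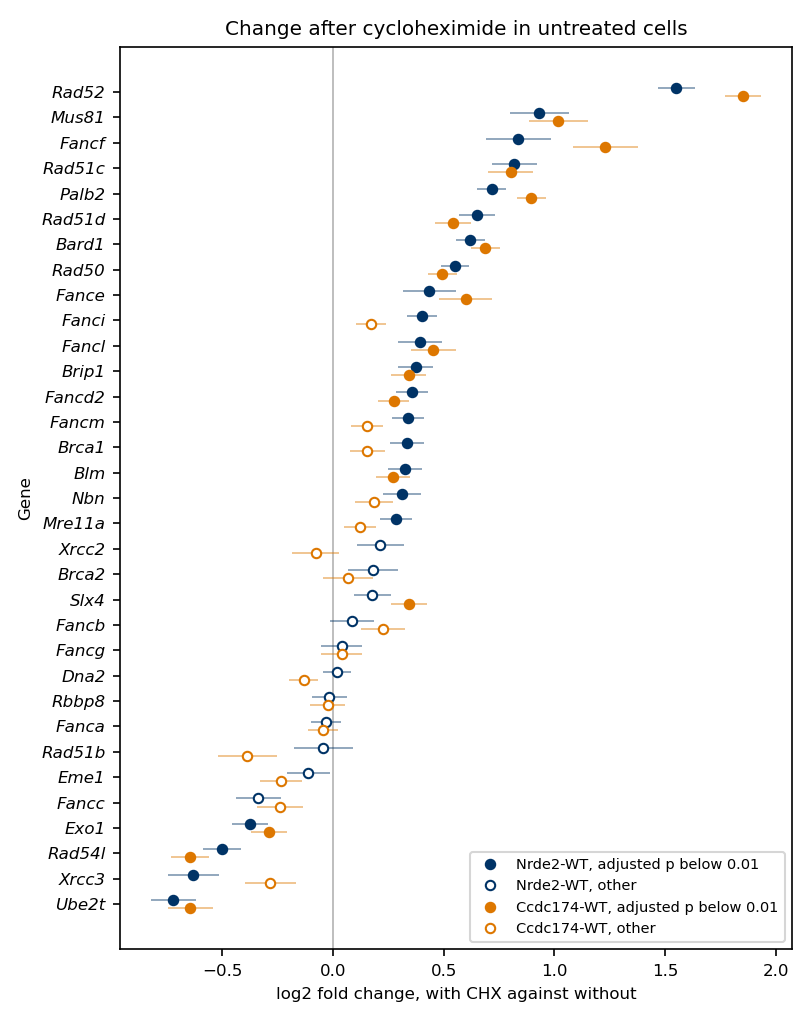
Log2 fold change with CHX against no CHX of the 33 genes in Nrde2-WT and in Ccdc174-WT, with bars of 1 SE. Rad52 (1.55 and 1.85) stands highest in both lines, and Ube2t and Rad54l lie among the lowest.

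In Ribo-seq, footprints of Fanca, Dna2, Brca2, Fanci and Fancd2 fell most in Nrde2-KO. Footprints of 10 of the 33 genes were lower in Nrde2-KO (30.3%, against 14.2% of 13857 genes tested) and none were higher (against 11%), and 2 fell more than 2-fold (6.06%, against 2.8%). The median log2 fold change was −0.37, against 0.00 over all genes tested, with 27 of the 33 below 0. Depth was lower than in RNA-seq, with at least 26 reads per gene in each Nrde2-WT library, and 5 genes were lower with CPM as deposited.

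Fanca footprints read 37.2 and 39.4 in Nrde2-WT and 12.7 and 15.7 in Nrde2-KO, 37.1% of the WT mean (−1.42, SE 0.13, limma adjusted p = 4.7e-08). Dna2 read 43.8 and 48.3 against 22.4 and 22.5 (−1.02, SE 0.11, limma adjusted p = 3.2e-07). Brca2 read 78.6 and 80.03 against 37.6 and 42.9 (−0.98, SE 0.09, limma adjusted p = 1.3e-07). For these 3 genes no Nrde2-KO library came near the lower WT library. Fanci read 75.6 and 81.1 against 37.8 and 42.2 (−0.97, SE 0.09) and Fancd2 72.1 and 78.0 against 41.0 and 42.5 (−0.84, SE 0.09). Brca1 read 71.0 and 79.4 against 48.2 and 51.2 (−0.59, SE 0.09, limma adjusted p = 3.8e-05), Bard1 49.4 and 44.4 against 29.4 and 33.2 (−0.58, SE 0.10, limma adjusted p = 0.0002), and Rad54l 27.0 and 28.6 against 17.2 and 19.6 (−0.59, SE 0.12, limma adjusted p = 0.00066). Fancm and Mre11a also passed. None of the 10 overlapped between groups, which adds no support, since the test that picked them used the same libraries.

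Of the 10 genes, 7 had also passed as lower in the first RNA-seq experiment, while Brca1, Bard1 and Fancm passed in Ribo-seq alone and Fance and Blm in RNA-seq alone. A test of the difference between the Ribo-seq and RNA-seq effects singled out 1 member, Dna2 (3.03%, against 2.56% of 12788 genes tested for a lower Ribo-seq effect), at −0.51 (SE 0.12, limma adjusted p = 0.0092). The Dna2 call was lost when any 1 of the 8 libraries was left out. For Brca1, Bard1 and Fancm the difference did not pass. The difference was below 0 for 24 of the 33 genes, with a median of −0.27 against 0.01 over all genes tested. In Ribo-seq, where 14.2% of all genes tested were lower and 11% higher, 26 of 36 S-phase genes were lower. Of the recombination and Fanconi partners 14 of 57 were lower and 3 higher.

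**Figure D5:**
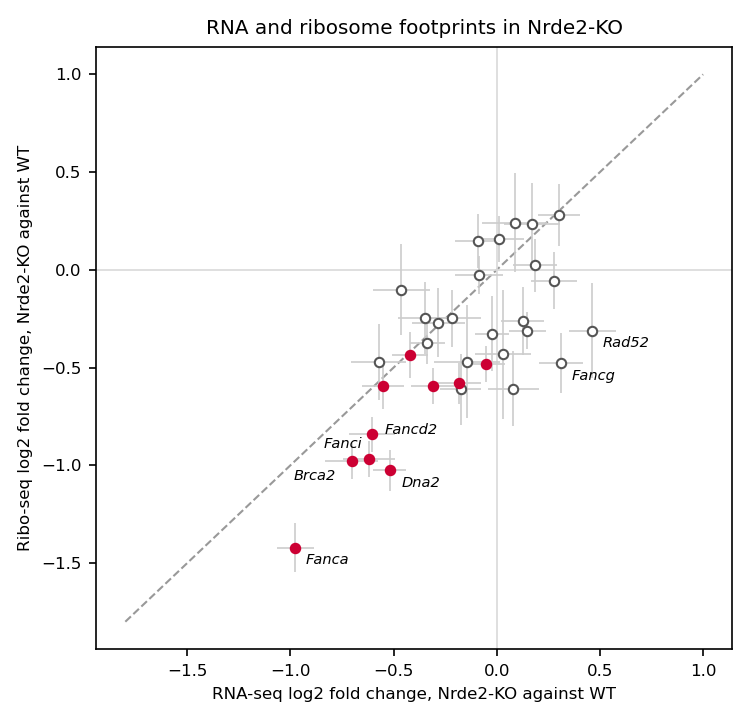
Log2 fold change in Nrde2-KO of the 33 genes by RNA-seq (first experiment, horizontal) and Ribo-seq (vertical), with bars of 1 SE, a dashed line of equal change and filled points for genes that passed in Ribo-seq. Most points lie below the line, and Fanca (−0.98 and −1.42) and Dna2 (−0.52 and −1.02) lie lowest on the Ribo-seq axis.

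In the comparisons of a loss without CHX or Ribo-seq, 8 of the 33 genes passed nowhere: Rad51b, Rad51d and Xrcc2 (strand-exchange group), the core subunits Fancb, Fancf and Fancg, the resection factor Rbbp8 and the nuclease subunit Mus81. Fanca was at the other end. It passed in both Nrde2-KO experiments, Nrde2d200, Ccdc174-dTAG, Mtrex-KO, both losses under CHX and Ribo-seq, and it did so under each of the 12 or 13 alternative settings run for each of these comparisons. No other member passed in all 8 of them.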

How the data were processed

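The deposited tables hold CPM per gene (one for RNA-seq, one for Ribo-seq). Per the study's methods, the authors mapped reads with STAR 2.7.3a (mm10), counted uniquely mapping reads on the correct strand over exons of GENCODE M23 genes with featureCounts, and scaled the counts to the library total. Libraries were made from total RNA after depletion of ribosomal RNA, so exonic reads of unspliced RNA are counted too. Ribo-seq reads had been collapsed to remove duplicates.

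The values were whole reads once unscaled (100% within 0.1 read), which gave the depths. With 2 libraries per group, their number limits the precision. CPM were divided by median-of-ratios size factors, 0.25 was added, and log2 values were fitted in limma 3.58.1 (lmFit, eBayes with trend, R 4.3.3) over genes whose deposited CPM averaged 0.5 or more: 20 RNA-seq libraries without CHX, 8 with CHX, 16 for CHX effects, 4 Ribo-seq, and 8 for Ribo-seq against RNA-seq. Fold changes are on the scale of log2(value + 0.25), which understates changes of low genes. P-values were adjusted over all genes of a fit, with 16 comparisons made. A gene passed at an adjusted p below 0.01, and 2-fold calls also needed a log2 fold change beyond 1.

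The 33 genes and the other lists were chosen with earlier results of these data known. In each comparison up to 8 passing members with the largest changes were given with all library values. Symbols came from GENCODE M21 (55154 of 55335 identifiers). No member's exons overlap those of another gene on the same strand. Groups came from the sample labels. The labels give the Ribo-seq cells 4 days of 4OHT and the methods 3 days followed by replating.

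Alternatives were 0.1 or 1 added before log2, no filter or a minimum of 1 CPM, CPM as deposited, a block for the replicate number, a fit to the compared groups alone, edgeR 4.0.16, DESeq2 1.42.0 and leaving out each library. Replicate numbers were not taken as pairs, because no label ties them and each comparison has only 2.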

Additional observations from a re-analysis of the deposited data

Results flagged for a closer look

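Dna2, the nuclease and helicase of long-range resection, was flagged because its Nrde2-KO change passed a test of the difference between Ribo-seq and RNA-seq. It was 1 member (3.03% of the list), against 2.56% of 12788 genes tested that passed with a lower Ribo-seq effect. A single call in the list is therefore near the share of all genes. The Ribo-seq effect minus the RNA-seq effect was −0.51 on the log2 scale (SE 0.12, limma adjusted p = 0.0092). Ribo-seq footprints read 43.8 and 48.3 in Nrde2-WT against 22.4 and 22.5 in Nrde2-KO, and RNA-seq of the first experiment read 111 and 114 against 78.4 and 78.4. The call was lost with no filter on low values, with CPM as deposited and without any 1 of the 8 libraries, and edgeR and DESeq2 each called 3 members in the same comparison.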

How the results depend on the processing

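All counts here are of members that passed in either direction, and the cause of each change was not tested. With CPM as deposited, 3 genes passed in Nrde2-KO, 1 in Nrde2d200, 1 in Ccdc174-dTAG, 2 in the second Nrde2-KO experiment, 5 in Ribo-seq, 23 in the difference between Mtrex-KO and Nrde2-KO, and 0 in the difference between Ribo-seq and RNA-seq. This setting shifts the median of all genes by −0.38 in Mtrex-KO, 0.20 and 0.21 for CHX, and 0.15 in Ribo-seq, and it turned Fancm in Mtrex-KO from 0.34 to −0.060. With no filter 1 gene passed in Nrde2d200, 2 in Ccdc174-dTAG, 4 in the second Nrde2-KO experiment and 0 in Ribo-seq against RNA-seq. Fitting only the compared groups gave 9 in Nrde2d200 and 14 in Mtrex-KO. DESeq2 gave 8 in Nrde2d200, 2 in the difference between Ccdc174-dTAG and Nrde2-KO, 1 in the CHX difference of Ccdc174-dTAG and 3 in Ribo-seq against RNA-seq, where edgeR gave 3 and adding 1 before log2 gave 2.

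With the replicate number as a block, 9 genes passed in Nrde2d200, 9 in Ccdc174-dTAG, 11 in the second Nrde2-KO experiment, 14 in Ccdc174-dTAG with CHX and 2 in the difference between Ccdc174-dTAG and Nrde2-KO, and all 132 calls of the main setting were kept. The replicate numbers share only a number: the correlation of deviations between same-numbered libraries ran from −0.07 (Nrde2d200) to 0.45 (Mtrex) over 9 pairs of groups.

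Leaving out 1 library at a time gave 5 to 8 genes in Nrde2-KO, 1 to 3 in Nrde2d200, 0 to 0 in Nrde2-D174R, 19 to 22 in Mtrex-KO, 1 to 3 in Ccdc174-dTAG, 2 to 6 in the second Nrde2-KO experiment, 10 to 14 in Mtrex-KO against Nrde2-KO, 0 to 0 in Ccdc174-dTAG against Nrde2-KO, 9 to 14 in Nrde2-KO with CHX, 4 to 5 in Ccdc174-dTAG with CHX, 9 to 12 in Ribo-seq, 15 to 20 and 11 to 14 for CHX in Nrde2-WT and Ccdc174-WT, 0 to 0 in both CHX differences, and 0 to 1 in Ribo-seq against RNA-seq. A lone library was assumed to vary like the other groups. Of 1757 alternative values of these 132 calls, 1540 kept their direction and side of the threshold, 216 kept only the direction and 1 reversed.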
